A study of Mus musculus with 4 samples.

Results

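Atrial and ventricular working cardiomyocytes of the fetal mouse heart were compared at embryonic day 16.5. The members were chosen by measured values. Of 22805 barcodes in 4 single-cell libraries, 9749 met the rule, which kept barcodes with at least 500 detected genes and a muscle score of at least 1.5, the mean of ln(1 + UMIs per 10000) over Tnnt2, Myh6, Ttn, Actn2 and Ryr2. A UMI is a molecular tag that counts 1 captured RNA molecule. Atrial myocytes came from the SAN region library, had more UMIs of the atrial light chain gene Myl7 than of the ventricular Myl2, and had no UMI of the node genes Shox2, Isl1, Tbx3 and Hcn4, which left 2707 cells. Ventricular myocytes came from the left and the right BB/PF region libraries, had more Myl2 than Myl7 and no UMI of Cacna2d2, which left 4220 and 2822 cells. Nothing is read from these 12 genes, and the values of Myl7 and Myl2 are not reported.

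The hearts were from untreated wild-type CD1 mice, and 1 library was made for each microdissected region, which are the tissue around the sinoatrial node (SAN), around the atrioventricular node and His bundle (AVN/His), and around the bundle branches and Purkinje fibers (BB/PF) of each ventricle. The paper locates the sinoatrial node where the superior vena cava meets the right atrium. No sample is labeled as left atrium, and whether the atrial values hold there was not tested. Libraries were 10x Genomics 3′ libraries primed with oligo(dT), so each value counts 3′ ends of transcripts. The paper states equal use of females and males for the experiments it describes, but its single-cell data were made before. Neither the sex nor the number of hearts in each library is given in the sources used here. Levels of the sex-linked genes Xist and Ddx3y differed between libraries and are given below. The AVN/His library was not used by the rule, and the same gates in it gave 102 atrial and 2572 ventricular cells.

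Atrial and ventricular myocytes share one contractile machine but build it with partly different isoforms. The thin-walled atria contract early and briefly, are slowed by the vagus nerve through acetylcholine-gated potassium channels, and secrete atrial natriuretic peptide, whereas ventricular myocytes generate the pumping force and are rich in slow myosin and mitochondria. The identities are held by transcription factors such as the COUP-TF orphan receptors Nr2f1 and Nr2f2 in the atrium, and Hey2 and Irx4 in the ventricle.

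UMIs were summed per library and class, and levels are given as CPM, the UMIs of a gene scaled to a total of 1000000 UMIs of that class. The 5 sums held 26263586 UMIs (SAN region, atrial), 1084409 (AVN/His, atrial), 37967258 (left, ventricular), 27512376 (right, ventricular) and 28889380 (AVN/His, ventricular), and values are listed in that order throughout. Median UMIs per cell lay between 8638 and 10864. The 3 libraries of the rule hold 1 atrial library, so its comparison has no replicate and no p. The test is edgeR's quasi-likelihood test on the 5 sums, 2 atrial against 3 ventricular, with Benjamini-Hochberg adjustment over all tested genes. Nothing in the labels gives separate animals for the sums, so a p reflects only how much the sums vary, and both AVN/His sums come from 1 library. In the 3 libraries of the rule, chamber and library cannot be told apart. Within the AVN/His library both classes share depth and free RNA, and its own fold is given as a check.

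Several whole-library measures moved with the classes. Mitochondrial transcripts took 11.1% of UMIs in SAN region and 9.40% in AVN/His atrial myocytes, against 15.5%, 18.8% and 16.3% in the ventricular sums. The 8 fibroblast markers, all with UMIs in each sum, added up to 516 and 148 CPM in the atrial sums against 87.2, 114 and 377 CPM, so the ranges overlapped. Of these 8, 0 passed by edgeR, 0 by DESeq2 and 0 at an unadjusted edgeR p under 0.05, but 3 were higher without the AVN/His ventricular sum and 6 without both AVN/His sums. The 8 endothelial markers added up to 64.8 and 63.6 CPM against 24.4, 59.4 and 39.9 CPM. The 6 epicardial markers added up to 23.3 and 38.7 CPM against 6.14, 5.89 and 7.30 CPM, without overlap, and 1 of the 4 tested, Krt19, was higher in atrial myocytes (edgeR adjusted p = 0.0134). The smooth muscle and pericyte markers (50.6 and 74.7 against 26.7, 35.9 and 71.1 CPM) and the neural markers (13.9 and 6.46 against 8.14, 7.74 and 9.10 CPM) were also at low levels. The 6 macrophage markers reached at most 32.0 CPM, in the SAN region sum. Nppa was also found outside the muscle barcodes of the SAN library, where 62.3% of 183 macrophage-marked barcodes, thinned to 3000 UMIs, held a UMI of it. Free RNA and doublets were not told apart in these barcodes. The female-specific Xist was at 90.4 and 0 CPM in the atrial sums against 848, 136 and 0.658 CPM, and the Y-linked Ddx3y at 54.8 and 40.6 CPM against 4.37, 36.7 and 40.7 CPM. The part of these in the results was not tested. The AVN/His atrial class was mixed, with Myl3 at 2295 CPM against 245 CPM in the SAN region class. The connexin genes Gja5 (41.5 against 236 CPM) and Gja1 (48.9 against 269.6 CPM) were lower in it. Among muscle barcodes with more Myl7 than Myl2, 71 of 173 in the AVN/His library held a node gene UMI. In the SAN library 523 of 3230 did. Without Cacna2d2-positive cells, 41 of 102 AVN/His and 2057 of 2707 SAN region atrial cells were left. Whether the AVN/His class held node cells with no detected node gene was not tested. Library pairs shared between 38 and 54 barcodes, none with the same counts. Just outside the muscle threshold, at scores of 1.4 to 1.5, were 11 atrial, 23 left and 21 right barcodes, with 12646, 1076 and 2789 CPM of Myl4, and just inside, at 1.5 to 1.6, were 11, 41 and 25, with 15159, 660.1 and 3566 CPM.

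Of 13303 tested genes, 1031 (7.75%) were higher and 890 (6.69%) lower in atrial myocytes. In CPM, both atrial sums stood above all 3 ventricular sums in 4825 tested genes (36.3%) and below them in 1918 (14.4%). A lack of overlap between groups, given for single genes below, was thus common and is not evidence by itself. The median log2 fold change of all tested genes was 0.01. With total UMIs in place of TMM factors, which scale the libraries so that most genes are level, that median moved to 0.19 and the calls to 1704 higher and 485 lower, and the share of calls that were higher went from 53.7% to 77.8%. The directions below are on the TMM scale. By a rule of size, since 1 atrial library allows no test, 344 of 5364 genes with at least 20 CPM (6.41%) were at least 2-fold higher in the SAN region class than in both the left and the right class, and 84 (1.57%) at least 2-fold lower. Within the AVN/His library 323 of the 344 and 83 of the 84 kept that direction, where 59.9% and 40.1% of all 5364 genes lay on those sides. Without the SAN region sum the test called 294 genes higher and 263 lower, without the left sum 490 and 349, and without the right sum 373 and 237.

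The chamber labels were set beside marker genes that the rule did not use. Members and lists were chosen with earlier results of these data known, so this is no independent check. Of 10 atrial markers, 9 were higher in atrial myocytes, with a median log2 fold change of 5.06 over the 10. Of 8 ventricular markers 5 were lower, with a median of -2.82. The shares among all tested genes were 7.75% higher and 6.69% lower. The tenth atrial marker, Kcna5, which encodes an atrial repolarizing channel, was at 1.75 and 2.77 CPM against 0.369, 0.545 and 0.969 CPM, without overlap, and did not pass (edgeR adjusted p = 0.127). The 3 ventricular markers that did not pass were Myl3, Hand1 and Gja1. Leaving out 1 sum left 8 or 9 atrial markers and 4 to 7 ventricular markers past the threshold.

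**Figure D1:**
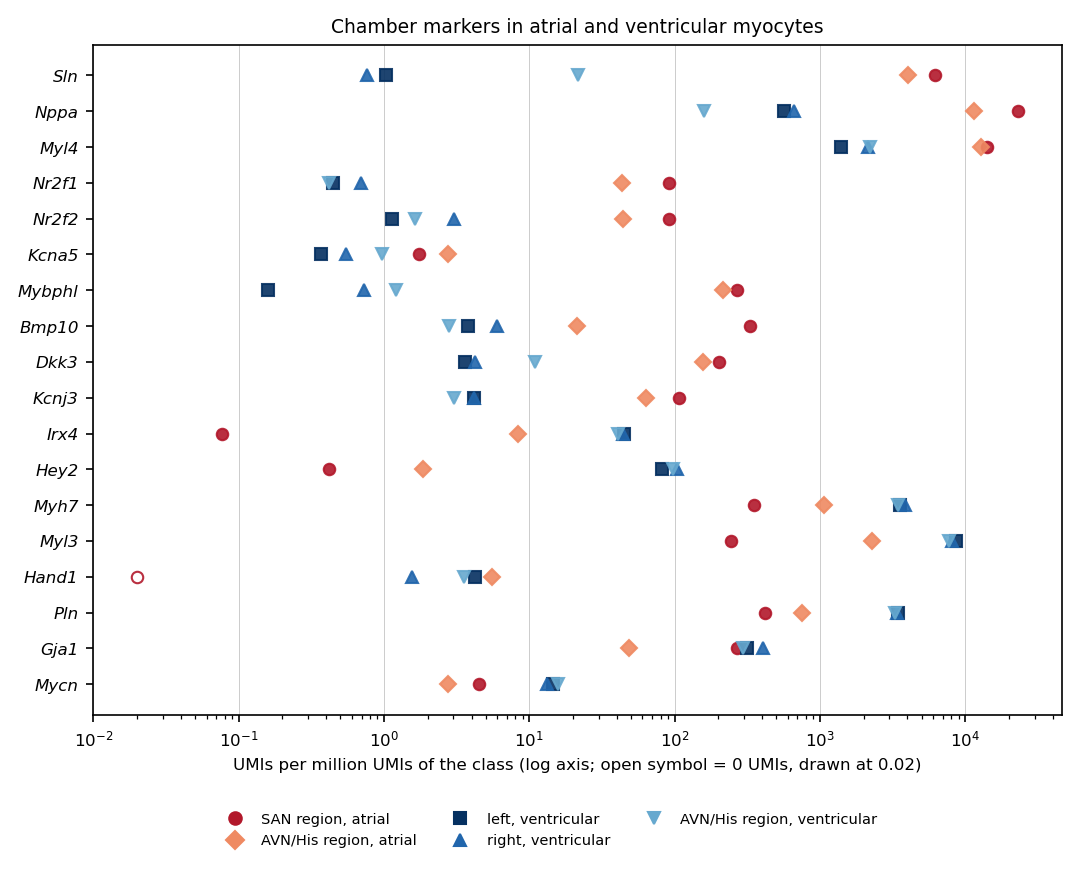
Summed level of the 10 atrial and 8 ventricular markers in CPM, on a log axis, with 1 symbol for each of the 5 sums (red atrial, blue ventricular). The atrial symbols of Sln stand at 6202 and 4013 CPM, and its ventricular ones between 0.763 and 21.7 CPM.

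Promoter windows of 4 chamber genes from both directions are shown. For the atrium these are the secreted hormone gene Nppa and the myosin-binding protein gene Mybphl. For the ventricle they are the myoglobin gene Mb and the calcium pump inhibitor gene Pln. The windows of Myl4 and Hey2 were also searched, held 0 of the motifs and are not shown. Each window shown holds a motif, so the 4 do not tell how often chamber genes hold one. Each window runs from 250 bases before to 50 after the start of transcription (RefSeq, GRCm38.p6) and is written 5′ to 3′ on the gene's strand. Capitals mark the letters of a searched motif on either strand. The motifs searched, chosen with the results known, were the T-box letters AGGTGT and the nuclear receptor half-site AGGTCA, both strands of each. The letters AGATAA stand for the motif of GATA factors, TATTTATA for that of MEF2 factors and CACGTG for an E-box. Other spellings of these motifs were not searched.

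Nppa, chr4:148000472-148000771, plus strand: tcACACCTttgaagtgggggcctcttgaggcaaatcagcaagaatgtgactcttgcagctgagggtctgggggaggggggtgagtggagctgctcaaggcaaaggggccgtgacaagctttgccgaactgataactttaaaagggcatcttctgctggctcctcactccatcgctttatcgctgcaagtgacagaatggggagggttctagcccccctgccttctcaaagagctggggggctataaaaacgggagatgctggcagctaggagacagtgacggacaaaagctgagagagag

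Mybphl, chr3:108364661-108364960, plus strand: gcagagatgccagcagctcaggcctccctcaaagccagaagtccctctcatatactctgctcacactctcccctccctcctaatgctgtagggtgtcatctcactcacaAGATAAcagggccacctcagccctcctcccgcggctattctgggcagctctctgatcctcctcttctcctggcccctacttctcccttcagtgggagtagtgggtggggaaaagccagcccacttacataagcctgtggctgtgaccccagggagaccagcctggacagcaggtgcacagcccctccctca

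Mb, chr15:77022738-77023037, minus strand: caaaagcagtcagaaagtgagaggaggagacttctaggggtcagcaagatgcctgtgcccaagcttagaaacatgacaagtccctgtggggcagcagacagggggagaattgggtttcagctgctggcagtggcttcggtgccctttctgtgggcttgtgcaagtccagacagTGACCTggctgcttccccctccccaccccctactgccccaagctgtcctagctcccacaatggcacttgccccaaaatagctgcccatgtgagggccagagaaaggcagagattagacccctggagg

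Pln, chr10:53337436-53337735, plus strand: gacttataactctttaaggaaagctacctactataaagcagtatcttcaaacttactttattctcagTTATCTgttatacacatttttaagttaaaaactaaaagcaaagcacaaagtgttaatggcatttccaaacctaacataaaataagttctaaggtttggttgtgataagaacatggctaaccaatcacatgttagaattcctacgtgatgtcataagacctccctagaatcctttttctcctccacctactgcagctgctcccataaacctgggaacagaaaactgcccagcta

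The Nppa window held the T-box letters, the Mb window the nuclear receptor letters, and the windows of Mybphl and Pln the GATA letters AGATAA. The spelling TGATAA, which was not searched, is in the Nppa and Pln windows and is not marked. Mb has 3 listed windows, and the one shown is the second. The first held 0 of the searched motifs, and the third held the same letters as the second. Among all 32851 mouse windows used, 13.7% held AGGTGT, 16.3% AGGTCA, 11.2% AGATAA, 1.70% TATTTATA and 7.15% CACGTG, on either strand. Windows were found for 767 of the 1031 genes that were higher and 662 of the 890 that were lower. AGGTGT was in 14.3% of the former genes, 13.6% of the latter and 12.7% of all 9904 tested genes with a window, and AGGTCA in 13.8%, 16.6% and 14.2%. The shares for AGATAA were 8.34%, 7.10% and 7.64%, for TATTTATA 1.43%, 1.81% and 1.32%, and for CACGTG 9.91%, 11.2% and 11.7%. A match describes these letters only.

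Among myosin chains and thick filament genes, 7 of 16 tested were higher and 4 lower in atrial myocytes (median log2 fold change 0.21). The shares among all tested genes were 7.75% and 6.69%. The atrial essential light chain gene Myl4 was at 14139 and 12917 CPM against 1395, 2147 and 2206 CPM. Its groups did not overlap and lay 10.1-fold and 6.59-fold apart in the left and right libraries (log2 fold change 2.63 ± 0.20 SE, edgeR adjusted p = 0.000641). Myl1, the essential light chain of fast skeletal muscle, was at 586 and 315 CPM against 10.5, 9.78 and 11.04 CPM (5.27 ± 0.26, edgeR adjusted p = 0.000231).

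Mybphl, a myosin-binding protein gene of atrial muscle, was at 269.8 and 216 CPM against 0.158, 0.727 and 1.21 CPM (8.34 ± 0.48, edgeR adjusted p = 0.000294). Both atrial sums stood far above each ventricular sum. Myl9, the light chain of nonmuscle and smooth muscle myosin, was at 2757 and 3089 CPM against 690.1, 869 and 1026 CPM (1.57 ± 0.16, edgeR adjusted p = 0.00176). Myom2, an M-band protein gene, was at 169 and 119.9 CPM against 21.0, 53.7 and 38.6 CPM (1.78 ± 0.37, edgeR adjusted p = 0.0223), a call that was lost without the SAN region sum (adjusted p = 0.199).

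The opposite pattern was that of slow myosin. Myh7, the slow heavy chain, was at 353 and 1060.5 CPM against 3572, 3875 and 3419 CPM (-2.57 ± 0.43, edgeR adjusted p = 0.011), and without the right sum its adjusted p was 0.0534. Myh7 shares much of its sequence with Myh6, which lies beside it, so reads of the pair may be split. Myl3, the ventricular essential light chain, was at 245 and 2295 CPM against 8681, 8133 and 7709.9 CPM. Its groups did not overlap, and the test did not pass with all 5 sums (-2.90 ± 0.82, edgeR adjusted p = 0.058). It passed in 9 alternatives, among them the DESeq2 Wald test (adjusted p = 0.0105), no filter on low counts (0.0038) and cells thinned to 3000 UMIs (0.0244). Its adjusted p was 0.00672 without the SAN region sum and 0.000258 without the AVN/His atrial sum. In the myosin list as a whole, leaving out the right sum gave 6 genes higher and lost all 4 lower calls, and leaving out the SAN region or the left sum 6 and 2.

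**Figure D2:**
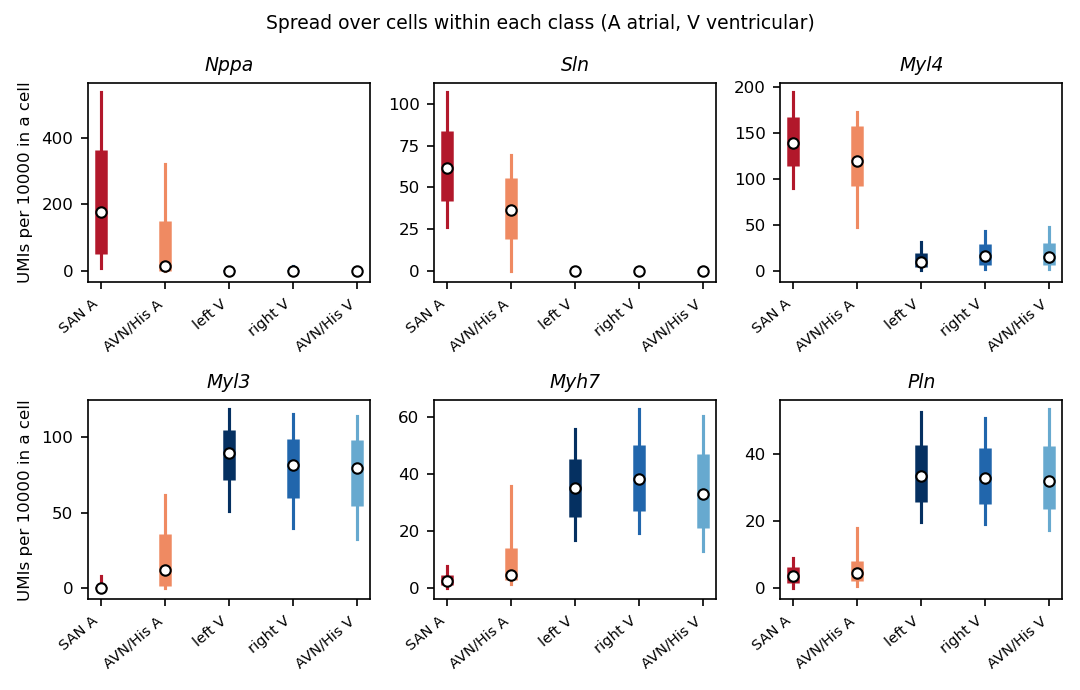
UMIs per 10000 in single cells for 6 genes in each of the 5 classes; thick bars span the 25th to 75th percentile, thin bars the 10th to 90th, and circles mark medians. Median Myl4 was 139.6 in SAN region atrial cells and 9.98 in left ventricular cells, and median Pln was 3.48 and 33.4.

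The cell-level spread differed between the genes. In SAN region atrial cells Nppa ranged from 8.76 at the 10th to 537 at the 90th percentile of UMIs per 10000, with a median of 176, while Myl4 ran from 89.9 to 195. AVN/His atrial cells had a median Nppa of 14.0 and a 75th percentile of 150.2, and 62.7% held a UMI of it. The spread of Sln was narrower, with UMIs in 99.7% and 88.2% of atrial cells and in 0.829%, 0.567% and 6.998% of ventricular cells. In Myl3 the AVN/His atrial cells reached 61.7 at the 90th percentile, against 7.90 in the SAN region.

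Thin filament, Z-disc and stretch-response genes were mixed, with 6 of 31 tested higher and 4 lower (median 0.13). For all tested genes these shares were 7.75% and 6.69%. Ankrd1, the stretch-responsive ankyrin repeat protein gene, was at 3046 and 3847 CPM against 585, 986 and 1164 CPM (1.73 ± 0.26, edgeR adjusted p = 0.00791). Csrp3, a Z-disc LIM protein gene, was at 3235 and 4315 CPM against 1946, 1737 and 2372 CPM (0.72 ± 0.15, edgeR adjusted p = 0.0251). The Csrp3 call was lost without the right sum and without the AVN/His atrial sum. The groups of both genes did not overlap. Acta2, the smooth muscle actin that fetal cardiomyocytes also make, went the other way, at 258 and 373 CPM against 1228, 1058 and 1247 CPM (-2.10 ± 0.17, edgeR adjusted p = 0.000807).

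Of the troponins, the fetal slow isoform gene Tnni1 was at 3084 and 3792 CPM against 4984, 4348 and 4154 CPM. Its difference passed the test (-0.58 ± 0.13, edgeR adjusted p = 0.0301), but not without the SAN region (0.187), left (0.0804) or right sum (0.0948), nor with total UMIs (0.0898). The cardiac Tnni3 was at 4297 and 5216 CPM against 4563, 4239 and 4081 CPM, and the cardiac actin Actc1 at 11738 and 13915 CPM against 11127, 10970.0 and 11917 CPM. Their groups overlapped and neither passed (edgeR adjusted p = 0.858 and 0.969). Leaving out 1 sum gave 2 to 6 calls higher and 2 to 4 lower in this list, with the fewest, 2 and 2, without the right sum.

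Of 19 tested genes of sarcoplasmic reticulum calcium cycling, 2 were higher and 1 lower (median 0.14), a share near that of all tested genes (7.75% and 6.69%), so the list as a group gave no result. Sarcolipin (Sln) and phospholamban (Pln) both restrain the calcium pump of the sarcoplasmic reticulum, Atp2a2. Sln was at 6202 and 4013 CPM against 1.03, 0.763 and 21.7 CPM (9.21 ± 1.45, edgeR adjusted p = 0.00933). Pln was at 416 and 749 CPM against 3439, 3379 and 3309 CPM (-2.74 ± 0.24, edgeR adjusted p = 0.0011). In both genes the atrial and ventricular sums were far apart, and within the AVN/His library Sln was 185-fold higher and Pln 4.42-fold lower in the atrial class. Atp2a2 itself was at 2828 and 1749 CPM against 1517, 1960.0 and 1349 CPM, which overlapped (edgeR adjusted p = 0.431). The list had 5 genes higher and 1 lower with total UMIs, and 1 and 1 without the SAN region or the right sum. The other higher gene was Fkbp1b, which encodes a ryanodine receptor-binding protein, at 14.7 and 12.9 CPM against 5.37, 5.02 and 6.85 CPM (edgeR adjusted p = 0.00965; without the SAN region sum 0.18 and without the right sum 0.0525). Ryr3, a ryanodine receptor outside the list, was at 58.1 and 49.8 CPM against 0.342, 1.38 and 2.60 CPM (5.14 ± 0.54, edgeR adjusted p = 0.00214).

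In the list of natriuretic peptides, peptide processing and secretion, 10 of 18 tested genes were higher and 1 lower, with a median log2 fold change of 1.28, against 7.75% higher and 6.69% lower of all tested genes. Nppa, the gene of atrial natriuretic peptide, was at 23043 and 11530.0 CPM against 565, 661 and 159 CPM (5.03 ± 0.63, edgeR adjusted p = 0.00421). Within the AVN/His library it was 72.7-fold higher in the atrial class. Nppb, its relative, was at 831 and 542 CPM against 296, 444 and 235 CPM, without overlap, and did not pass (0.90 ± 0.30, edgeR adjusted p = 0.0963).

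Among the processing enzymes and cofactors, Pam, which amidates peptides and is abundant in atrial granules, was at 3200.2 and 1817 CPM against 399, 597 and 532 CPM (2.12 ± 0.27, edgeR adjusted p = 0.00427). Corin, the protease that activates pro-atrial natriuretic peptide, was at 151 and 67.3 CPM against 50.04, 52.2 and 44.1 CPM (1.07 ± 0.28, edgeR adjusted p = 0.0486). That p was close to the threshold, and whether the Corin call held under the alternatives is not given. The guanylyl cyclase receptor gene Npr1 was at 20.8 and 15.7 CPM against 7.77, 5.78 and 7.06 CPM (1.32 ± 0.18, edgeR adjusted p = 0.00542). These 3 genes had no overlap between groups. Among secreted factors, the vasodilator adrenomedullin (Adm) was at 50.5 and 33.2 CPM against 3.35, 5.20 and 4.19 CPM (3.22 ± 0.24, edgeR adjusted p = 0.000591), and the Wnt modulator gene Dkk3 at 202 and 157 CPM against 3.58, 4.25 and 10.9 CPM (4.70 ± 0.44, edgeR adjusted p = 0.0014). In this list 5 genes were higher without the right sum, 6 without the SAN region sum, 7 without the left sum and 12 with total UMIs.

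Among potassium channel genes 3 of 19 tested were higher and 3 lower (median 0.31), against 7.75% and 6.69% of all tested genes, and with total UMIs 5 were higher and 3 lower. The acetylcholine-gated channel of atrial muscle is built from Kcnj3 and Kcnj5. Kcnj3 was at 108 and 63.6 CPM against 4.16, 4.14 and 3.05 CPM (4.39 ± 0.25, edgeR adjusted p = 0.000294) and Kcnj5 at 90.4 and 85.8 CPM against 15.3, 19.9 and 16.9 CPM (2.16 ± 0.15, edgeR adjusted p = 0.000494). Both subunits were higher in each atrial sum than in any ventricular sum. The sulfonylurea receptors of ATP-gated channels changed in opposite directions, with Abcc8 at 40.5 and 14.8 CPM against 6.82, 12.5 and 6.78 CPM and Abcc9 at 29.4 and 5.53 CPM against 62.4, 75.6 and 55.3 CPM (edgeR adjusted p = 0.0305 and 0.0369). Abcc8 lost its call without the SAN region (0.69), left (0.102) or AVN/His ventricular sum (0.0529) and with no exclusion by node genes and Cacna2d2 (0.0532). Abcc9 lost it without the left (0.0956) or the right sum (0.129) and with the DESeq2 Wald test (0.067). Kcnip2, the subunit of the transient outward current, was at 2.78 and 1.84 CPM against 17.0, 20.5 and 14.7 CPM (-2.87 ± 0.26, edgeR adjusted p = 0.0013; without the SAN region sum 0.0571). The list had 5 genes higher and 4 lower without the AVN/His atrial sum, and 2 and 1 without the SAN region or the left sum.

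Of 19 tested genes for autonomic receptors and cyclic AMP signaling, 4 were higher and 2 lower (median 0.39), against 7.75% and 6.69% of all tested genes. Chrm2, the muscarinic receptor of the heart, was at 90.01 and 88.5 CPM against 27.6, 32.7 and 29.6 CPM (1.39 ± 0.12, edgeR adjusted p = 0.00107). Gnao1, an inhibitory G protein subunit gene, was at 79.8 and 83.0 CPM against 6.51, 8.03 and 8.17 CPM (3.24 ± 0.13, edgeR adjusted p = 9.49e-05). Rgs6, which ends the signal of these G proteins, was at 30.5 and 57.2 CPM against 6.16, 6.22 and 8.31 CPM (2.32 ± 0.26, edgeR adjusted p = 0.00264). All 3 were without overlap, and each was also higher in the atrial class within the AVN/His library, by 2.99-fold, 10.2-fold and 6.88-fold. Gnai2, another inhibitory subunit gene, was lower, at 103 and 107 CPM against 179, 166 and 163 CPM (-0.88 ± 0.10, edgeR adjusted p = 0.00359). With total UMIs 8 genes of this list were higher and 1 lower. It had 6 higher and 1 lower without the SAN region sum, and 3 and 1 without the left or the right sum.

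Among sodium and calcium channel genes 3 of 9 tested were higher and the other 6 did not pass, against 7.75% higher of all tested genes. Among connexins 1 of 5 was higher, and with so few genes that list as a group gave no result. Cacna1d, a calcium channel gene of atrial and pacemaker cells, was at 9.52 and 22.1 CPM against 1.16, 2.14 and 2.84 CPM (2.53 ± 0.47, edgeR adjusted p = 0.0159; without the right sum 0.0688). The fast-conducting connexin 40 gene, Gja5, was at 236 CPM in SAN region atrial myocytes and 41.5 CPM (exact 95% Poisson interval 30.3 to 55.5, counting error only) in the AVN/His class, against 9.80, 4.83 and 4.12 CPM (4.40 ± 0.65, edgeR adjusted p = 0.00722). Its call was lost without the SAN region sum (0.0832) and the right sum (0.0552). Connexin 43, Gja1, was at 269.6 and 48.9 CPM against 314, 404 and 296 CPM (-1.16 ± 0.56, edgeR adjusted p = 0.216), and without the SAN region sum its adjusted p was 0.0128. All calls of both lists were lost without the right sum; without the left sum 1 sodium or calcium channel gene was higher.

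The transcription factor list, which also holds the ligand gene Bmp10, had 7 of 33 tested genes higher and 11 lower. This compares with 7.75% and 6.69% of all tested genes. The median of the list was -0.16, and 0.03 with total UMIs. Nr2f1 was at 91.8 and 43.3 CPM against 0.448, 0.691 and 0.415 CPM (6.97 ± 0.36, edgeR adjusted p = 0.000231), and Nr2f2 at 91.4 and 44.3 CPM against 1.13, 3.05 and 1.63 CPM (5.09 ± 0.43, edgeR adjusted p = 0.000977). Both COUP-TF genes were near 0 in ventricular sums. Tbx5, a T-box factor of the atria and left ventricle, was at 148 and 150.3 CPM against 10.9, 9.30 and 10.9 CPM (3.66 ± 0.11, edgeR adjusted p = 5.79e-05). Its 2 atrial sums were close to each other, as were its 3 ventricular sums, left and right alike. Bmp10, the atrial trabecular growth factor gene, was at 329 and 21.2 CPM (interval 13.4 to 31.8) against 3.77, 5.96 and 2.80 CPM (5.34 ± 0.86, edgeR adjusted p = 0.00996). Its adjusted p was 0.106 without the SAN region sum, 0.0511 without the left and 0.0563 without the right sum.

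On the ventricular side, the repressor gene Hey2 was at 0.419 and 1.84 CPM against 81.5, 103 and 97.5 CPM (-7.75 ± 0.34, edgeR adjusted p = 0.000126), that is, 11 and 2 UMIs in the atrial sums. Its relative Hey1 was higher in the atrium, at 13.0 and 3.69 CPM against 0.764, 1.16 and 1.70 CPM (edgeR adjusted p = 0.00849). The pair thus lay on opposite sides. Irx4, an Iroquois homeobox gene of the ventricle, was at 0.0762 and 8.30 CPM, or 2 and 9 UMIs, against 44.9, 44.3 and 40.7 CPM (edgeR adjusted p = 0.00789). The Irx4 call was lost with the DESeq2 Wald test (0.156) and with no exclusion by node genes and Cacna2d2 (0.0611). Irx3 and Irx5, also Iroquois genes, lay on the same side, at 0.343 and 0 CPM against 7.22, 5.34 and 7.79 CPM and at 0.723 and 2.77 CPM against 5.77, 4.33 and 6.89 CPM (edgeR adjusted p = 0.00111 and 0.0104).

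Irx1 had no UMI in either atrial sum, against 12.5, 5.85 and 3.22 CPM, so it was at least 110-fold lower in SAN region atrial than in left ventricular myocytes when a floor of 3 UMIs is set for the empty sum, and at least 51.2-fold lower than in the right (edgeR adjusted p = 0.0192). Irx2 had no UMI in the SAN region sum and was at 1.84 CPM in the AVN/His atrial sum, against 23.9, 9.12 and 6.99 CPM (edgeR adjusted p = 0.0184). Irx1 and Irx2 were both higher on the left than on the right. Their adjusted p without the SAN region sum was 0.407 and 0.481, and without the right sum 0.0661 and 0.0563. With the DESeq2 Wald test on all 5 sums Irx2 did not pass either (adjusted p = 0.201). Prdm16, a compact-myocardium regulator gene, was at 0.152 and 0.922 CPM against 9.19, 8.91 and 9.17 CPM (edgeR adjusted p = 0.000494), and Mycn, a growth regulator gene, at 4.49 and 2.77 CPM against 14.5, 13.1 and 15.7 CPM (-1.92 ± 0.18, edgeR adjusted p = 0.00143). Gata4 was at 56.9 and 55.3 CPM against 55.8, 59.3 and 67.2 CPM, with overlap (edgeR adjusted p = 0.145). The list had 5 genes higher and 6 lower without the SAN region sum, and 4 and 8 without the right sum.

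**Figure D3:**
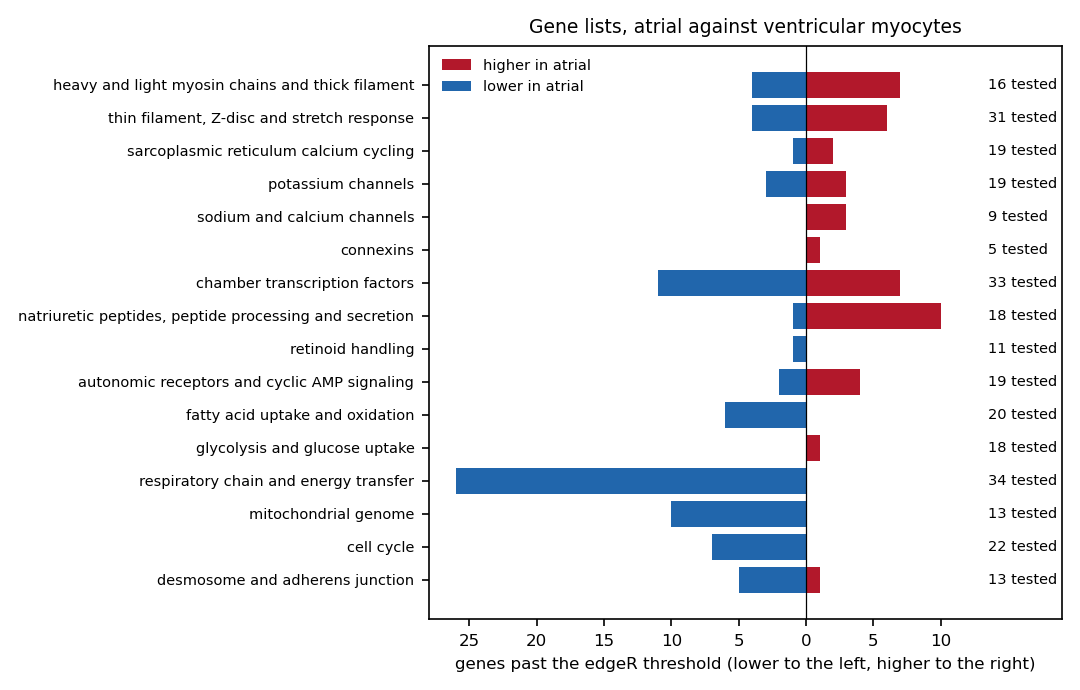
Number of genes past the edgeR threshold in each of 16 gene lists, with bars to the right for genes higher and to the left for genes lower in atrial myocytes, and the number tested at the right edge. The longest bar is that of the respiratory chain and energy transfer list, with 26 of 34 genes lower.

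In the list of nuclear respiratory chain and energy transfer genes 26 of 34 tested were lower and the other 8 did not pass, with a median of -0.57, against 6.69% lower of all tested genes. With total UMIs 14 were lower (median -0.38), and the lower count was 3 without the SAN region sum, 8 without the right, 13 without the left and 18 without the AVN/His atrial sum. Myoglobin (Mb), the oxygen store of muscle, had the largest difference of the list, at 46.1 and 95.9 CPM against 1026, 1577 and 1082 CPM (-4.42 ± 0.39, edgeR adjusted p = 0.00105). The other differences were small. Sdha, the flavoprotein subunit of complex II, was at 217 and 268 CPM against 454, 483 and 404 CPM (-1.08 ± 0.14, edgeR adjusted p = 0.00484). Cox4i1, a complex IV subunit gene, was at 3369 and 3453 CPM against 4721, 4644 and 4293 CPM (-0.61 ± 0.10, edgeR adjusted p = 0.0107). The Cox4i1 call was lost without the SAN region sum. Not every energy gene was lower: values were close for the muscle genes Cox6a2, a complex IV subunit gene, at 2001 and 1814 CPM against 1528, 1865 and 1501 CPM, and the creatine kinase gene Ckm, at 2404 and 2581 CPM against 2324, 2465 and 2141 CPM, whose groups overlapped.

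The transcripts of the mitochondrial genome moved the same way, with 10 of 13 lower, against 6.69% of all tested genes, and a median of -0.83. The complex I gene mt-Nd1 was at 10558 and 9866 CPM against 18767, 21377 and 18520.0 CPM (-1.13 ± 0.12, edgeR adjusted p = 0.00215). The complex IV gene mt-Co2 was at 11800.0 and 9236 CPM against 18053, 22837 and 18492 CPM (-1.10 ± 0.17, edgeR adjusted p = 0.00849). Neither gene's groups overlapped, and the count was 6 without the SAN region sum and 10 with total UMIs. The mitochondrial share of UMIs can also move with cell handling, and its part in this was not tested.

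**Figure D4:**
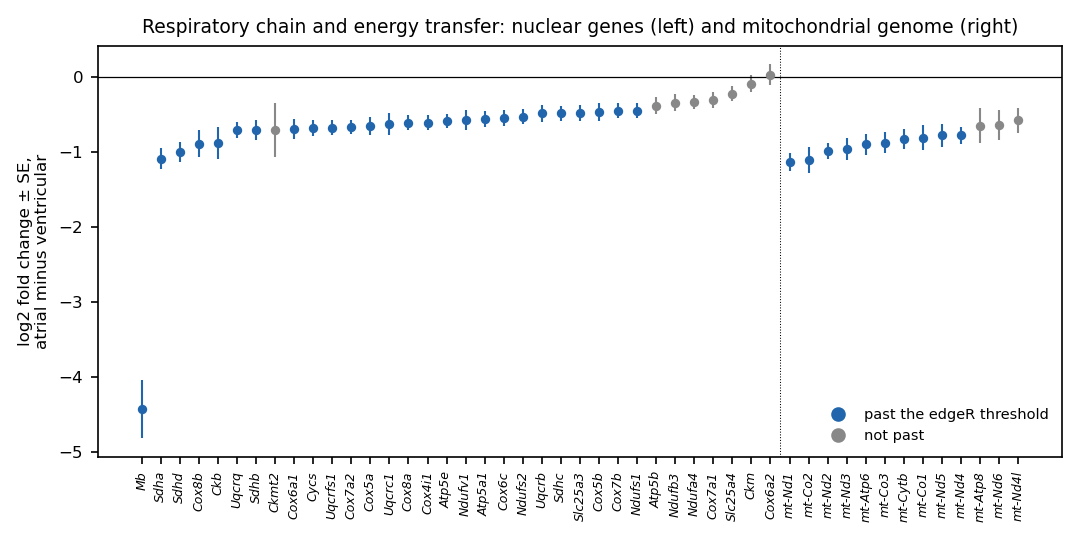
Log2 fold change, atrial minus ventricular, with its standard error, for 34 nuclear respiratory chain and energy transfer genes and 13 genes of the mitochondrial genome (blue, past the edgeR threshold; gray, not past). Mb stands at -4.42 and the mitochondrial genes lie between -1.13 and -0.57.

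Fatty acid genes were lower in part, with 6 of 20 tested lower against 6.69% of all tested genes, the other 14 not past the threshold and a median of -0.38. Acsl1, which activates long-chain fatty acids, was at 35.5 and 26.7 CPM against 133, 152 and 109.7 CPM (-2.18 ± 0.21, edgeR adjusted p = 0.00158). Acadm, the medium-chain dehydrogenase of beta-oxidation, was at 175 and 193 CPM against 345, 334 and 310.3 CPM (-1.04 ± 0.11, edgeR adjusted p = 0.00223). Both were without overlap. In this list 3 genes were lower without the SAN region or the right sum, and 4 without the left sum. In glycolysis 1 of 18 genes was higher, near the 7.75% of all tested genes, so the list as a group gave no result. It was the muscle phosphoglycerate mutase gene Pgam2, at 1559 and 1665 CPM against 902, 804 and 769 CPM (0.78 ± 0.11, edgeR adjusted p = 0.00574). The other glycolysis genes did not pass. Gapdh was at 3411 and 3467 CPM against 3738, 3655 and 3350.5 CPM, with overlap.

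Cell cycle genes had 7 of 22 tested lower, against 6.69% of all tested genes, and the other 15 not past the threshold (median -0.78). Rrm2, a ribonucleotide reductase subunit gene of S phase, was at 59.9 and 25.8 CPM against 146, 128 and 109.8 CPM (-1.59 ± 0.30, edgeR adjusted p = 0.0165), and the mitotic ubiquitin ligase gene Ube2c at 143 and 71.9 CPM against 256, 207 and 232 CPM (-1.22 ± 0.26, edgeR adjusted p = 0.0254). The AVN/His atrial sum was the lowest for both. Rrm2 and Ube2c did not pass without the left (0.0551 and 0.0778) or the right sum (0.0713 and 0.0805), and either of these left 1 lower call in the list. With total UMIs 6 were lower and 1 higher, and without the SAN region sum 12 were lower.

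In the desmosome and adherens junction list 5 of 13 genes were lower, against 6.69% of all tested genes, and 1 was higher, near the share of all genes (median -0.41). The higher gene, Cdh13, which encodes T-cadherin, lost its call without the SAN region (0.0931), left (0.0613) or right sum (0.0519). N-cadherin (Cdh2), the adhesion molecule of the intercalated disc, was at 196 and 235 CPM against 288, 328 and 310.4 CPM (-0.72 ± 0.12, edgeR adjusted p = 0.0114), and the alpha-T-catenin gene Ctnna3 at 31.8 and 34.1 CPM against 47.2, 46.5 and 49.5 CPM (-0.74 ± 0.11, edgeR adjusted p = 0.00675). Left without the SAN region sum, Cdh2 had an adjusted p of 0.0814 and Ctnna3 of 0.0682, and all lower calls of the list were lost. Without the right sum Cdh2 was at 0.054 and 1 gene of the list was lower, without the left sum 2, and with total UMIs 2. Of 11 tested retinoid genes 1 was lower, near the 6.69% of all tested genes, so the list as a group gave no result. It was the receptor gene Rxra, at 7.88 and 4.61 CPM against 14.5, 13.1 and 12.8 CPM (edgeR adjusted p = 0.0146). Its call was lost without the SAN region (0.0526), left (0.0563) or right sum (0.0691).

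The genes with the largest differences included several that the lists do not hold. Fgf12, an intracellular modulator of sodium channels, had 5463 and 152 UMIs in the atrial sums, or 208 and 140.2 CPM, against 5, 0 and 5 UMIs (edgeR adjusted p = 7.80e-05). Vsnl1, a calcium sensor gene, had 2384 and 90 UMIs against 0, 1 and 5, and Tmem163, a zinc transporter gene, had 2123 and 51 UMIs against 3, 1 and 1 (edgeR adjusted p = 7.80e-05 and 7.62e-05). All 3 were all but absent from ventricular myocytes, and against a floor of 3 UMIs in the left library Vsnl1 was at least 1149-fold higher in the SAN region class. Camk1d, a calmodulin-dependent kinase gene, had 2275 and 56 UMIs against 1, 3 and 14 (edgeR adjusted p = 0.000378). Macrophage-marked barcodes held Camk1d in every library, at 40.1 CPM (SAN region), 22.2 CPM (AVN/His), 16.7 CPM (left, from 19 barcodes) and 35.8 CPM (right). Left and right ventricular myocytes held less of it, 0.0263 and 0.109 CPM, so for this gene these barcodes do not gauge free RNA of ventricular myocytes. The source of Camk1d in them was not tested.

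On the ventricular side, Smyd2, a lysine methyltransferase gene, was at 9.56 and 20.3 CPM against 202, 148 and 168 CPM (-4.08 ± 0.30, edgeR adjusted p = 0.000595). Ddc, which encodes aromatic L-amino acid decarboxylase, the last enzyme in the making of dopamine and serotonin, was at 11.2 and 18.4 CPM against 121, 237 and 178 CPM (-4.01 ± 0.39, edgeR adjusted p = 0.00156). The lysophosphatidic acid receptor gene Lpar3 was at 6.85 and 12.9 CPM against 72.7, 66.6 and 69.4 CPM (-3.34 ± 0.22, edgeR adjusted p = 0.000435). None of these overlapped, where 14.4% of all tested genes lay below in the same way. Each held its direction within the AVN/His library, at 8.30-fold, 9.67-fold and 5.37-fold lower. Lbh, a limb and heart transcription cofactor gene, was at 39.7 and 118 CPM against 542, 539.8 and 504 CPM (-3.11 ± 0.42, edgeR adjusted p = 0.00535), and Pdlim1, a PDZ and LIM domain protein gene, at 8.99 and 24.9 CPM against 86.8, 74.3 and 83.4 CPM (-2.95 ± 0.35, edgeR adjusted p = 0.00343).

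**Figure D5:**
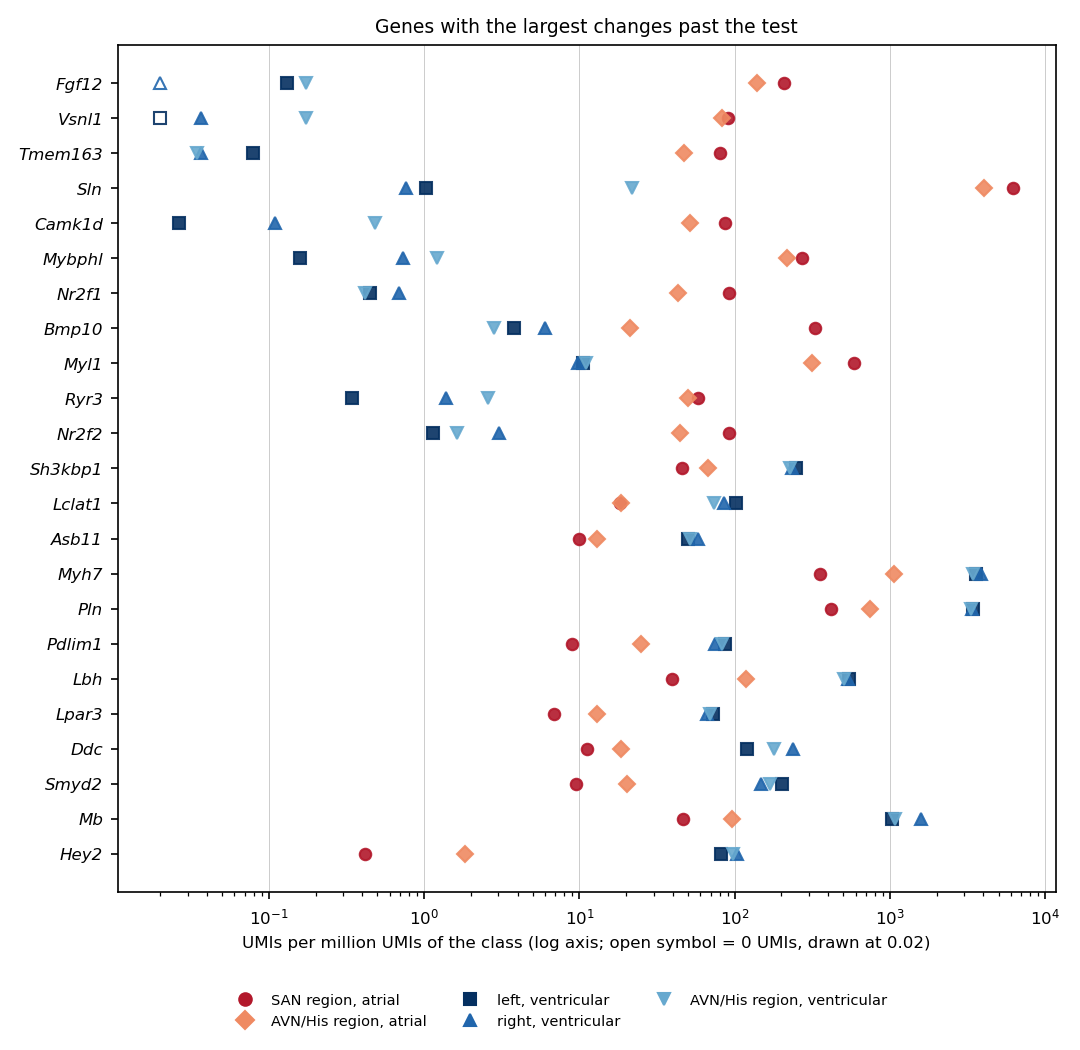
Summed level of 23 genes with the largest differences past the edgeR threshold, 11 higher and 12 lower in atrial myocytes, in CPM on a log axis, with 1 symbol for each of the 5 sums and open symbols for sums with 0 UMIs. In each gene both atrial symbols stand on one side of all 3 ventricular symbols, as for Smyd2 with 9.56 and 20.3 CPM against 148 to 202 CPM.

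Shares of cells with a UMI, after each cell was thinned to 3000 UMIs, gave the same picture for single genes. Tbx5 was detected in 35.7% of SAN region and 30.4% of AVN/His atrial cells, against 3.22%, 2.73% and 3.15% of ventricular cells, and as sequenced in 71.0%, 69.6%, 8.89%, 8.58% and 10.9%. Macrophage-marked barcodes of the SAN library, at a median of 5773 UMIs, held a UMI of Tbx5 in 0.546%. Mb was detected after thinning in 11.5% and 22.5% of atrial and in 84.2%, 89.3% and 80.1% of ventricular cells, and in 0.546% of those macrophage-marked barcodes. As sequenced, the Mb shares were 28.4%, 37.3%, 96.2%, 97.0% and 93.4%. For Sln the share in macrophage-marked barcodes of the SAN library was 28.4% after thinning, above the 3.03% of AVN/His ventricular cells, and it was 1.28% in those of the AVN/His library.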

How the data were processed

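The deposited files hold UMI counts per gene and barcode; per the study's methods the authors aligned reads and counted UMIs with Cell Ranger at default parameters (mm10). Versions, and how doublets were treated, are not given in the sources used here. Barcodes were gated, not clustered, and no doublet caller was run. The members, gene lists and motifs were chosen with earlier results of these data known. UMIs were summed into 5 sums (2 atrial, 3 ventricular) and tested with edgeR 4.0.16 in R 4.3.3 (quasi-likelihood, TMM factors, filterByExpr, 13303 genes, 3 residual degrees of freedom, adjusted p threshold 0.05). The standard error (SE) of a log2 fold change is its absolute value divided by the square root of the quasi-likelihood F. Poisson and binomial intervals (95%) are exact and cover counting error only. A floor of 3 counts stands for 0. Cells were thinned to 3000 UMIs for shares, and 0 cells of the 5 classes were shallower. Macrophage-marked barcodes (at least 3 of 6 markers) were used as a gauge of free RNA, except for genes that macrophages make themselves. Doublets among them were not removed. In simulated data of 13312 genes, 52% of 2-fold and 80.6% of 4-fold changes were recovered. There 100 genes were changed 2-fold and 98 4-fold, and the sums were drawn with no shared library. In the data 14.4% of tested genes were called and 1 library gave a pair of sums, so these recovered shares need not hold there. Named genes are the chamber markers, up to 4 called genes per list and direction with the largest change, and the 12 largest changes per direction at 50 CPM or more; some genes this selects are not reported here. Myl9, Csrp3, Tnni3, Actc1, Atp2a2, Nppb, Pam, Corin, Npr1, Hey1, Irx3, Irx5, Prdm16, Gata4, Cox4i1, Cox6a2, Ckm and Gapdh were named after their values were seen. For these genes no adjusted p under the alternatives is given, and they are not among the single named genes counted below. DESeq2 1.42.0, other scalings, gates and left-out sums were alternatives.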

Additional observations from a re-analysis of the deposited data

Results flagged for a closer look

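In 9 genes the difference between chambers was at least 2-fold in one direction in the 3 libraries of the rule and at least 2-fold in the other within the AVN/His library. The difference between the libraries was not tested. Of these, 8 were higher in SAN region atrial myocytes than in both ventricular libraries, and lower in the atrial than the ventricular class of the AVN/His library. The collagen genes Col1a1, Col1a2 and Col3a1 were lower there by a factor of 3.41, 4.07 and 2.58, the matrix gene Fn1 by 2.33 and the secreted growth factor gene Ptn by 2.38. The leukocyte-associated gene Lsp1 was lower by a factor of 4.36, and the imprinted genes Dlk1 and Meg3 by 2.62 and 2.04. Col1a1 was at 113.8 and 18.4 CPM in the atrial sums against 12.4, 15.5 and 63.0 CPM. Macrophage-marked barcodes of the SAN library held 722 CPM of it and 751 CPM of Col1a2. The part of free RNA in these values was not tested.

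Mhrt, the long noncoding RNA antisense to Myh7, went the other way. It was at 8.99 and 17.5 CPM against 34.2, 88.4 and 8.38 CPM, and within the AVN/His library 2.09-fold higher in the atrial class. The sources used here do not state how the counting treated strand, and its part in the Mhrt values was not tested.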

How the results depend on the processing

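With total UMIs in place of TMM factors, 1704 genes were higher and 485 lower in atrial myocytes. Leaving out 1 sum at a time gave between 294 and 1174 genes higher and between 237 and 948 lower. The low ends came without the SAN region sum (294 and 263), the left sum (490 and 349) and the right sum (373 and 237), while 1386 genes were higher and 1061 lower without both AVN/His sums; the cause was not tested. In the 3 libraries of the rule, 768 genes were higher and 222 lower at 1.5-fold, 133 and 27 at 4-fold, and 75 and 33 with at least 100 CPM in the higher class. The other alternatives kept these counts within 1.5 times. The log2 fold change of Hand1 was 0.6151 without the SAN region sum (edgeR adjusted p = 0.74), the reverse of its direction with all sums, and -9.601 without the AVN/His atrial sum, where it rests on a sum with 0 UMIs and is no measure of size; the cause was not tested. Of the values of single named genes under the alternatives, 1571 kept direction and side of the threshold, 120 lost the threshold, 13 gained it and 1 reversed. The setting that also took Cacna2d2-positive cells out of the atrial class was chosen after seeing the data and gave 937 genes higher and 833 lower. The limma fit with the library as a random block was not run, because 1 library alone gave a pair of sums and its correlation could not be estimated. No paired analysis was possible because the labels give no replicate numbers and only the AVN/His library holds both classes. The 1084409 UMIs of the AVN/His atrial sum limit what can be seen there.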
